A study of Mus musculus with 94 samples.

Results

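The genes of the proteasome were examined in single haematopoietic stem cells labelled Ski-KO or Ski-WT. Members were all genes of the deposited table whose symbol begins with Psma, Psmb, Psmc, Psmd or Psme followed by a digit, with pseudogene symbols left out. The rule gave 45 of 13244 genes, and it used no measured value. They were grouped by textbook role into 16 core genes, 17 regulatory particle genes, 5 immunoproteasome genes and 7 others. The study concerned loss of Ski, which holds down transcription downstream of TGF-beta, in mouse stem cells of the C57BL/6 strain. Both groups were fetal liver-derived stem cells that had been transplanted 6 months before bone marrow was collected. Marrow was enriched on CD117 beads and sorted for Cd45.2+ cells that were lineage-negative, Sca-1+, c-Kit+, Cd150+ and Cd48-. Of 94 cells, 46 were labelled Ski-KO and 48 Ski-WT.

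Proteins marked with ubiquitin are degraded by the proteasome. Its core is a barrel of stacked rings, with outer rings of alpha subunits and inner rings of beta subunits, among which Psmb5, Psmb6 and Psmb7 encode the catalytic ones. The regulatory particle binds the end of the barrel. Its base unfolds the substrate with ATPases encoded by Psmc genes, and its lid removes ubiquitin. In blood cells and after interferon, the catalytic subunits can be replaced by those of Psmb8, Psmb9 and Psmb10, and Psme1 and Psme2 form a different cap, the activator ring. This immunoproteasome is known for cutting peptides that are presented on class I molecules. Haematopoietic stem cells are known to depend on controlled protein synthesis and turnover.

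Each deposited library was 1 cell, and the labels tie no cell to a mouse, so each genotype counted as 1 sample. No test was made, and every spread or interval below is over cells. The start of each cell name gave a label prefix. Of the Ski-KO cells, 27 carried 051716 and 19 carried 051816, whereas all 48 Ski-WT cells carried 061016, so the genotype cannot be told apart from the prefix. The labels used here do not state what the prefix means, which part of Ski was removed or how many animals were used. Values are TPM, which are scaled for transcript length and keep no sequencing depth, or log2(TPM + 1), and a difference is the Ski-KO mean minus the Ski-WT mean of log2(TPM + 1). A value of 0 means only that a gene was listed at 0 in that cell. The median number of genes above 0 per cell was 3248 in prefix 051716, 3679 in prefix 051816 and 3670.5 in the Ski-WT cells. Ski itself reached 5 TPM in 3 cells of Ski-KO and 6 of Ski-WT, too few to check the labels. Of the stem cell markers, Kit reached 5 TPM in 38 cells of Ski-KO and 41 of Ski-WT, Hlf in 30 and 35, and Slamf1, which encodes Cd150, in 4 and 7. Mpo, Elane, Il7r and Csf1r, which mark other blood cells, reached it in 0 cells. Other genes of the same lists were found. Myeloid Lyz2 reached it in 28 cells of each genotype and Prtn3 in 24 of Ski-KO and 33 of Ski-WT, and megakaryocyte Pf4 in 12 and 17 and Itga2b in 7 and 9. Their part in the results was not tested.

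The proteasome genes were among the well expressed genes of these cells, and the core was detected more widely than the regulatory particle. By mean TPM over all cells, 13 of the 14 standard core genes ranked within the highest 1000 genes, as did 9 of 17 regulatory particle genes and 5 of 5 immunoproteasome genes. Psme1, a subunit of the activator ring, had the highest mean of all members, at 840 TPM and rank 168 of 13244. Psma7, an alpha ring subunit, led the core with 687 TPM, followed by Psmb2 with 611 TPM. In the regulatory particle, Psmd14, the lid enzyme that cleaves ubiquitin from the substrate, had the highest mean, at 303 TPM, and Psmd7, its partner in the lid, the next, at 259 TPM.

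Some members were hardly found. Psma8, the alpha subunit known from the testis, had a mean of 12.2 TPM and reached 5 TPM in 4 cells of 94. Psmb11, the catalytic subunit of the thymus, averaged 0.25 TPM and reached 5 TPM in 0 cells. Psmd3, a lid subunit, averaged 10.3 TPM and reached 5 TPM in 8 cells, and Psmd13 of the lid averaged 36 TPM. These low values include a subunit that every standard regulatory particle contains, so a value of 0 in a cell does not show that the cell lacked the transcript. Psma8 and Psmd3 were also the 2 members with values above 0 in under 25% of the cells of either genotype. The other 43 were among the 6240 genes that passed this filter.

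**Figure D1:**
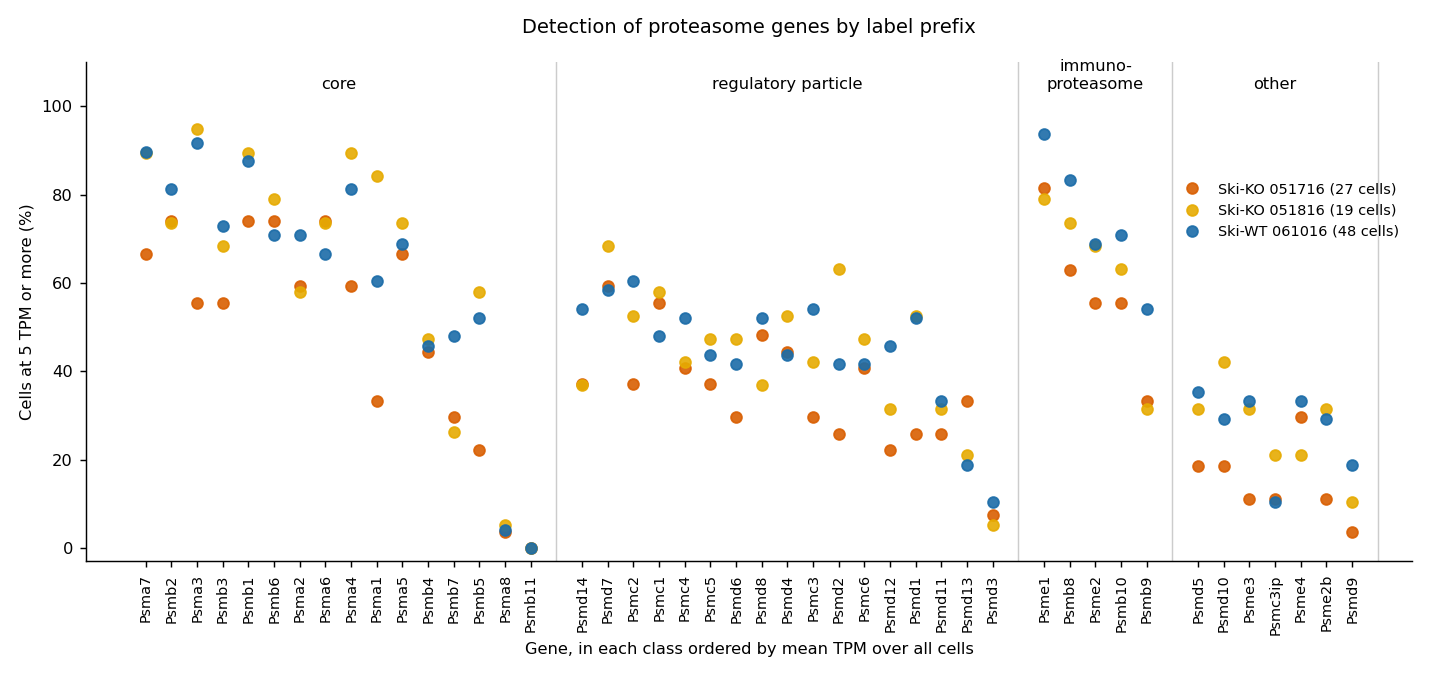
Share of cells at 5 TPM or more (vertical axis, percent) for each of the 45 genes, ordered within each class by mean TPM over all cells, with a point for each label prefix (27, 19 and 48 cells). In the immunoproteasome panel all 5 genes have their highest share in the Ski-WT cells, whereas in the core several 051816 points lie at or above Ski-WT and most 051716 points lie below.

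Averaged over the 16 core genes, a gene reached 5 TPM in 49.5% of the cells of prefix 051716, 63.2% of prefix 051816 and 62.0% of the Ski-WT cells. For the regulatory particle the averages were 35.3%, 43.3% and 44.2% in the same order. For the immunoproteasome they were 57.8%, 63.2% and 74.2%. Over the 6240 filtered genes they were 30.2%, 32.2% and 34.7%. Thus 051816 lay close to Ski-WT for the core and the regulatory particle, as the plot of detection by label prefix shows. For the immunoproteasome both Ski-KO prefixes lay below Ski-WT, as they also did over all filtered genes.

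To compare genotypes gene by gene, a gene was called lower when its difference was -1 or less and both Ski-KO prefixes lay below Ski-WT, and higher by the mirrored rule. Over all 6240 genes, 11.5% were called lower and 2.0% higher. Among the 45 proteasome genes 13 were called lower and 0 higher. The rule passed a larger part of well expressed genes. Of the 1346 genes whose mean level was at or above that of Psmb9, the lowest of the immunoproteasome genes, 19.8% were called lower. The median difference over all 6240 genes was -0.22. Each difference of a proteasome gene was smaller than the SD over cells in either genotype. Both Ski-KO prefixes were compared with the same Ski-WT cells.

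In the core, 3 of 16 genes were called lower, Psmb7, Psma3 and Psma7, against the 11.5% of all genes. This is near the 19.8% of genes at or above the level of Psmb9, although Psmb7, Psma8 and Psmb11 did not reach that level. The median difference over the 16 genes was -0.50. By prefix it was -0.74 in 051716 and -0.05 in 051816. As the log2 ratio of mean TPM, the median was 0.050, so the lower log2 means of the core were not seen in the mean TPM. Prefix 051716, where the core values were low, also had the fewest genes above 0 per cell. With the number of genes above 0 as a covariate, the median core difference was -0.16 and 1 core gene was still at -1 or less.

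In the core, the alpha ring, which gates entry to the barrel, differed more between the Ski-KO prefixes than the beta subunits, with median differences between the prefixes of 1.06 and 0.13. For Psma3 the lowest, median and highest log2 values were 0, 7.59 and 11.11 in the Ski-KO cells and 0, 8.03 and 11.61 in the Ski-WT cells. The groups overlapped over the whole range. Psma3 reached 5 TPM in 15 of 27 cells of 051716, 18 of 19 cells of 051816 and 44 of 48 Ski-WT cells. Its difference of -1.39 thus came from 051716, at -2.36, while 051816 was at -0.00, and its mean TPM was 550 in the Ski-KO and 537 in the Ski-WT cells. Psma7 had lowest, median and highest values of 0, 8.19 and 11.74 in the Ski-KO and 0, 8.81 and 11.12 in the Ski-WT cells. Its difference was -1.12, with -1.82 in 051716 and -0.13 in 051816. Psma1, chosen after its values were seen, had the widest split of the core. It reached 5 TPM in 9 of 27 cells of 051716 (33.3%, CI 16.5% to 54.0%), 16 of 19 of 051816 (84.2%, CI 60.4% to 96.6%) and 29 of 48 Ski-WT cells (60.4%, CI 45.3% to 74.2%). The intervals (CI) here and below are exact Clopper-Pearson intervals at 95% and cover counting error only. Its mean log2 values were 3.14, 7.41 and 5.14, so the Ski-KO prefixes lay on opposite sides of Ski-WT. Psma4 was split in the same manner, with -2.38 in 051716 and 0.44 in 051816. Psma2 differed by -0.88, Psma5 by -0.35 and Psma6 by 0.26, and for each of them the prefixes lay on 1 side of Ski-WT.

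Of the beta subunits that carry the active sites, Psmb7, which encodes the trypsin-like site, was the lowest relative to Ski-WT. Its lowest, median and highest log2 values were 0, 0.00 and 10.64 in the Ski-KO cells and 0, 2.42 and 10.42 in the Ski-WT cells. At 5 TPM or more it was found in 13 of 46 Ski-KO cells (28.3%, CI 16% to 43.5%) and 23 of 48 Ski-WT cells (47.9%, CI 33.3% to 62.8%). The ranges and the intervals overlapped. The difference was -1.65, with -1.36 in 051716 and -2.06 in 051816, and mean TPM was 150 against 234. Psmb5, which encodes the chymotrypsin-like site, had values of 0, 0.44 and 10.67 in the Ski-KO cells and 0, 2.94 and 10.28 in the Ski-WT cells. It was found at 5 TPM or more in 6 of 27 cells of 051716 and 11 of 19 of 051816, and its differences of -1.81 and 0.59 pointed in opposite directions. Psmb6, which encodes the caspase-like site, was higher in the Ski-KO cells by 0.51, with 0.57 and 0.42 by prefix. Its values were 0, 7.99 and 11.84 in the Ski-KO cells and 0, 7.48 and 11.32 in the Ski-WT cells. Mean TPM of Psmb6 was 617 in the Ski-KO and 449 in the Ski-WT cells. The 3 catalytic genes thus had 3 different patterns. Among the beta subunits without an active site, Psmb2 differed by -0.65, Psmb3 by -0.73, Psmb1 by -0.30 and Psmb4 by -0.18.

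By means of log2 values, the immunoproteasome genes were the lowest class relative to Ski-WT, and here both Ski-KO prefixes gave like medians. The median difference over the 5 genes was -1.32, with -1.30 in 051716 and -1.34 in 051816, and 3 of 5 were called lower, against the 11.5% of all genes and the 19.8% of genes at these levels. The median difference of those 1346 genes was -0.28. With 5 genes, 1 gene moves this count by 20 percentage points. As the log2 ratio of mean TPM the class median was -0.118 and 0 of 5 were at -1 or less. On that scale it was not the lowest class, with medians of -0.121 for the regulatory particle and -0.188 for the 7 other genes. Averaged over the 5 genes, the share of cells at 5 TPM or more differed by -14.17 percentage points, and the share above 0 by -6.99.

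Psmb9, which replaces the subunit of Psmb6, had the most negative difference of all 45 genes, -1.80, with -1.62 in 051716 and -2.05 in 051816. Its lowest, median and highest log2 values were 0, 0.00 and 10.39 in the Ski-KO cells and 0, 4.80 and 10.35 in the Ski-WT cells. It reached 5 TPM in 15 of 46 Ski-KO cells (32.6%, CI 19.5% to 48%) and 26 of 48 Ski-WT cells (54.2%, CI 39.2% to 68.6%). The single highest cell of each genotype was thus alike, and more Ski-KO cells were listed at or near 0. Among cells at 5 TPM or more the median log2 value was 7.16 in Ski-KO and 8.20 in Ski-WT. By prefix it was 8.39 in 051716 and 5.41 in 051816. Mean TPM was 128 against 225.

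Psmb8, which replaces the subunit of Psmb5, had values of 0, 7.21 and 11.90 in the Ski-KO cells and 0, 8.72 and 11.17 in the Ski-WT cells. Values of 5 TPM or more were found in 31 of 46 Ski-KO cells (67.4%, CI 52.0% to 80.5%) and 40 of 48 Ski-WT cells (83.3%, CI 69.8% to 92.5%). Its difference was -1.40, with -1.40 in 051716 and -1.39 in 051816. Among cells at 5 TPM or more the median log2 value was 9.66 in 051716, 8.57 in 051816 and 8.96 in Ski-WT, so Ski-WT lay between the Ski-KO prefixes. Mean TPM was 501 in the Ski-KO and 544 in the Ski-WT cells.

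Psme1 had values of 0, 8.88 and 11.36 in the Ski-KO cells and 0, 9.50 and 11.80 in the Ski-WT cells. It reached 5 TPM in 37 of 46 Ski-KO cells (80.4%, CI 66.1% to 90.6%) and 45 of 48 Ski-WT cells (93.8%, CI 82.8% to 98.7%). The difference was -1.32, with -1.30 and -1.34 by prefix, and mean TPM was 717 against 958. The other 2 genes did not follow. Psmb10, which replaces the subunit of Psmb7, had values of 0, 6.05 and 10.68 in the Ski-KO and 0, 6.64 and 10.34 in the Ski-WT cells. Its difference was -0.26, with -0.50 and 0.08 by prefix, and its mean TPM was higher in the Ski-KO cells, at 268 against 189. Psme2, the partner of Psme1 in the ring, had values of 0, 8.27 and 11.55 in the Ski-KO and 0, 7.28 and 11.16 in the Ski-WT cells. Its difference was -0.27, with -0.56 and 0.14 by prefix. For both genes, as listed, the Ski-KO prefixes lay on different sides of Ski-WT.

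**Figure D2:**
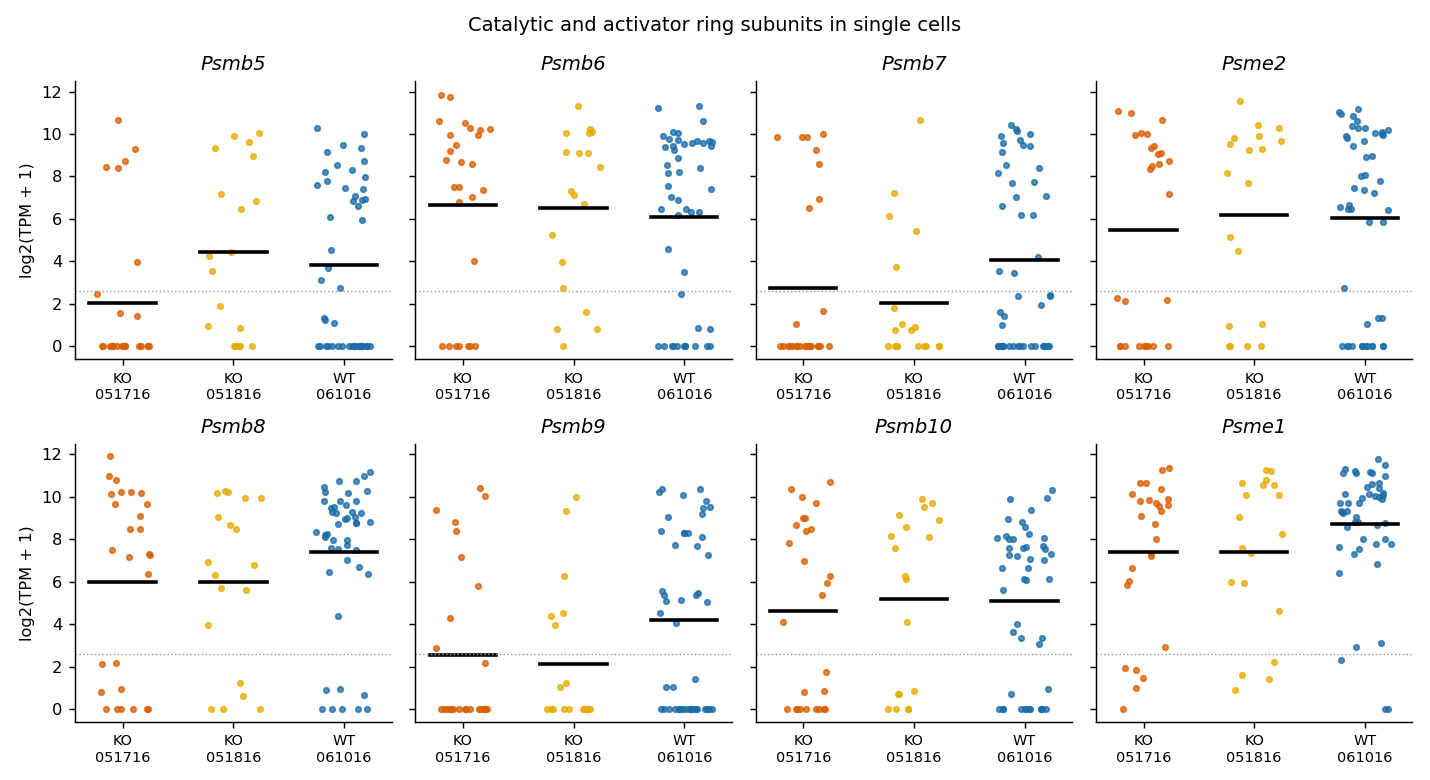
Value of log2(TPM + 1) in every cell (points) for the 3 standard catalytic genes, their 3 immunoproteasome counterparts and both activator ring genes, by label prefix, with the mean as a black line and 5 TPM as a dotted line. Cells fall into a high cloud and a group at or near 0, and for Psmb9 and Psmb7 the group near 0 holds more of the Ski-KO cells (15 and 13 of 46 reached 5 TPM, against 26 and 23 of 48 in Ski-WT).

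Psme2 has a near copy, Psme2b, so its value is uncertain. Their longest coding transcripts in GENCODE, of 962 and 837 bases, aligned over 794 bases with 5 differences, an identity of 99.4%. Psme2b reached 5 TPM in 23 cells, and in 22 of these Psme2 did so too. It held 4.59% of the TPM of the pair. Summed over the pair, the difference was -0.48 in place of -0.27, and both Ski-KO prefixes then lay below Ski-WT, at -0.78 in 051716 and -0.05 in 051816. The sum moved the mean log2 value from 6.03 to 6.27 in Ski-WT and from 5.76 to 5.79 in Ski-KO. Psme2b reached 5 TPM without Psme2 in 1 Ski-WT cell and 0 Ski-KO cells. How much of the change came from this 1 cell was not tested. How reads were split between the copies was not stated in the sources used here.

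The standard and immunoproteasome catalytic genes had like totals in these cells. Mean TPM summed over Psmb8, Psmb9 and Psmb10 was 897 in the Ski-KO and 957 in the Ski-WT cells, and summed over Psmb5, Psmb6 and Psmb7 it was 935 and 837. The immunoproteasome share of this catalytic TPM was 49.0% in Ski-KO and 53.4% in Ski-WT, with 50% in 051716 and 47% in 051816. In 23 of 46 Ski-KO cells and 26 of 48 Ski-WT cells the immunoproteasome total exceeded the standard total. The order within each pair differed. Psmb8 exceeded Psmb5 in 31 Ski-KO and 38 Ski-WT cells, whereas Psmb9 exceeded Psmb6 in 8 and 18. Psmb10 exceeded Psmb7 in 27 Ski-KO and 21 Ski-WT cells. All 3 immunoproteasome catalytic genes reached 5 TPM together in 8 of 46 Ski-KO cells (17.4%, CI 7.82% to 31.4%) and 13 of 48 Ski-WT cells (27.1%, CI 15.3% to 41.8%). None of the 3 did so in 4 Ski-KO cells and in 0 Ski-WT cells. All 3 standard catalytic genes reached 5 TPM together in 5 of 46 Ski-KO cells (10.9%) and 11 of 48 Ski-WT cells (22.9%). None of the 3 standard genes did so in 7 cells of Ski-KO and 7 of Ski-WT.

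In the regulatory particle, 6 of 17 genes were called lower, against the 11.5% of all genes and the 19.8% of genes at or above the level of Psmb9. These were Psmc2, Psmc3 and Psmd1 of the base and Psmd11, Psmd12 and Psmd14 of the lid. Psmd1, Psmd11 and Psmd12 did not reach the level of Psmb9. The median difference over the 17 genes was -0.12. Without Psmd3, which did not pass the filter used for the -0.22 of all genes, it was -0.41. The class held some genes at -1 or less and others above 0, so its median depended on the members counted. By prefix the median over the 17 genes was -0.38 in 051716 and -0.06 in 051816. With each cell's mean over the filtered genes taken off, the class median was 0.13 and 3 genes were still at -1 or less with both prefixes below Ski-WT.

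Psmc2, a base ATPase, had the most negative difference of the class, -1.78, with -2.26 in 051716 and -1.11 in 051816. Its lowest, median and highest log2 values were 0, 0.70 and 10.82 in the Ski-KO cells and 0, 6.99 and 10.68 in the Ski-WT cells. The limit of 5 TPM was met in 20 of 46 Ski-KO and 29 of 48 Ski-WT cells, and mean TPM was 207 against 297. Psmc3, another base ATPase, differed by -1.34, and reached 5 TPM in 16 cells of Ski-KO and 26 of Ski-WT. Psmd1, the large scaffold of the base, differed by -1.04, with -1.70 in 051716 and -0.10 in 051816. In contrast Psmc1, an ATPase of the same ring, was higher by 0.64, with 0.14 and 1.35 by prefix, and reached 5 TPM in 26 cells of Ski-KO and 23 of Ski-WT. Psmc4 differed by -0.84, Psmc5 by -0.11 and Psmc6 by -0.12. The 6 ATPases, which assemble into a ring with a place for each, thus ranged from -1.78 to 0.64. Psmd2, the other large scaffold, split by prefix, with -0.57 in 051716 and 1.71 in 051816, and was chosen after its values were seen. Psmd4, a ubiquitin receptor, differed by 0.24.

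In the lid, Psmd12 had values of 0, 0.00 and 9.90 in the Ski-KO cells and 0, 0.63 and 10.55 in the Ski-WT cells. It reached 5 TPM in 12 of 46 Ski-KO cells (26.1%, CI 14.3% to 41.1%) and 22 of 48 Ski-WT cells (45.8%, CI 31.4% to 60.8%). Its difference was -1.42, and its mean TPM, 79.4 against 169, gave a log2 ratio of -1.08. Psmd11 differed by -1.05, and its mean TPM of 38.4 against 164 gave the most negative log2 ratio of the 45 genes, -2.07. Psmd14 differed by -1.12, with 17 of 46 Ski-KO and 26 of 48 Ski-WT cells at 5 TPM or more, yet its mean TPM was 305 against 301. Psmd11 and Psmd12 were thus the called members of the lid that were also low in mean TPM. Psmd8 differed by -0.69, Psmd6 by 0.02, Psmd7 by 0.26, Psmd13 by 0.47 and Psmd3 by 0.11.

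Of the other 7 genes 1 was called lower, Psmd5, an assembly factor of the base, at -1.0, which is just past the limit. This count is near the 11.5% of all genes. Psmd9 and Psmd10, also base assembly factors, differed by -0.83 and 0.04. Psme3, which forms a nuclear activator ring, differed by -0.81. Psme4, a single-chain activator, differed by -0.31 and Psme2b by -0.38. Psmc3ip, which encodes a cofactor of recombination and no proteasome subunit although its symbol fits the rule, differed by 0.55.

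Both Ski-KO prefixes carry the same genotype label, so their difference is a measure of how far values move without a change of genotype. Over the 6240 genes, 15.7% were higher by 1 or more in 051816 than in 051716. The core had 6 of 16 such genes, 4 of them in the alpha ring. The base had 5 of 9 and the lid 0 of 8. The immunoproteasome had 0 of 5, too few genes to set apart from the 15.7%. Its median difference between the prefixes was 0.01, with members from -0.42 (Psmb9) to 0.70 (Psme2). The number of members lower by 1 or more in 051816 was 0 in each of these classes. The share of all genes lower by 1 or more was not taken, so this count has no background. Prefix 051816 also had more genes above 0 per cell than 051716, and the part of this in the result was not tested.

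**Figure D3:**
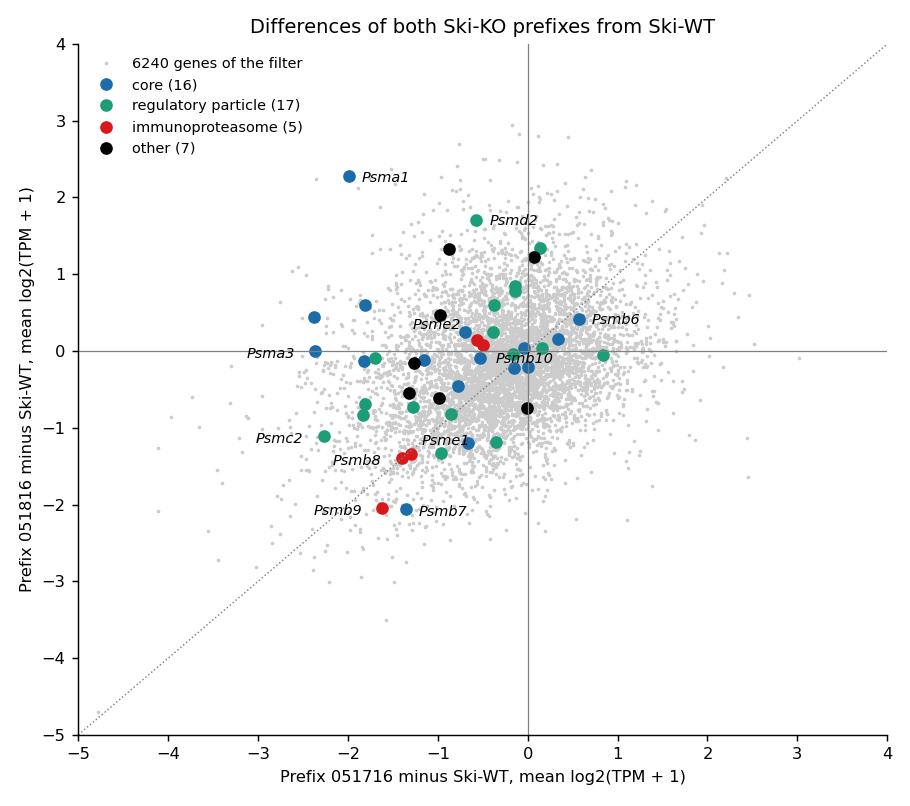
Difference of each Ski-KO prefix from the same Ski-WT cells in mean log2(TPM + 1), 051716 on the horizontal and 051816 on the vertical axis, for the 6240 filtered genes (grey) and the 45 proteasome genes (coloured by class). Psmb8 and Psme1 lie near the dotted line of equal differences, while Psma1 (-1.99 and 2.28) lies far above it. From 051716 to 051816 the change was -0.42 for Psmb9 and -0.70 for Psmb7, and 0.58 for Psmb10 and 0.70 for Psme2.

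Cell by cell, the per-cell mean of log2(TPM + 1) was taken over each class. For the core the lowest, median and highest cell had 1.64, 3.89 and 7.02 in 051716, 2.81, 5.16 and 7.79 in 051816, and 3.23, 5.49 and 8.13 in Ski-WT. For the regulatory particle these were 0.99, 2.76 and 5.29, then 1.71, 3.40 and 5.77, and 0.88, 3.42 and 6.28. The immunoproteasome gave 1.25, 5.43 and 9.68 in 051716, 1.23, 5.81 and 9.62 in 051816, and 2.23, 6.31 and 9.15 in Ski-WT. The groups overlapped over most of their ranges in all 3 classes. The per-cell means averaged 4.82 ± 1.58 (SD over 46 cells) in Ski-KO and 5.37 ± 1.15 (SD over 48 cells) in Ski-WT for the core. For the regulatory particle they were 3.05 ± 1.26 and 3.48 ± 1.39, and for the immunoproteasome 5.27 ± 2.14 and 6.28 ± 1.64. Each of these differences, -0.55, -0.44 and -1.01, was smaller than the SD over cells.

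**Figure D4:**
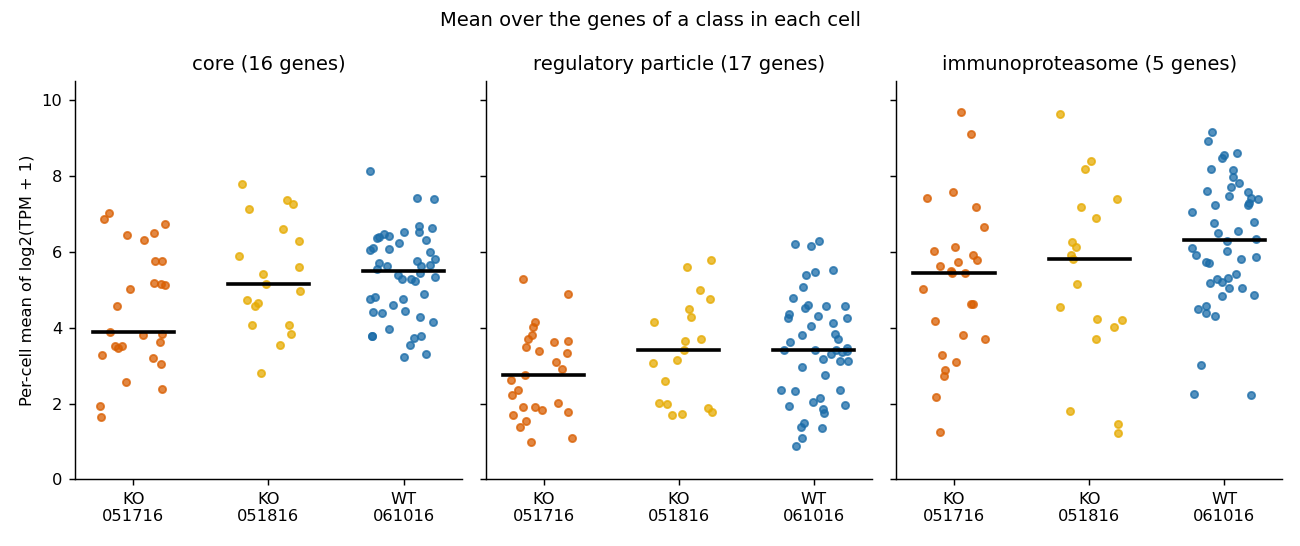
Per-cell mean of log2(TPM + 1) over the genes of each class (points are cells, black lines are medians), by label prefix. For the core the median of 051716 (3.89) lies below those of 051816 (5.16) and Ski-WT (5.49), and for the immunoproteasome both Ski-KO medians (5.43 and 5.81) lie below that of Ski-WT (6.31).

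Summed over the 16 core genes, mean TPM per cell was 6193 in 051716, 6939 in 051816 and 6230 in Ski-WT. The total was thus like that of Ski-WT in 051716 although fewer subunits were found. Of the 14 standard core subunits, a median of 7 reached 5 TPM in a cell of 051716 (range 2 to 13), 10 in 051816 (range 5 to 14) and 10 in Ski-WT (range 6 to 14). All 14 were found together in 3 of 94 cells. At most 4 were found in 5 cells of 051716 and in 0 cells of the other prefixes. The 7 alpha subunits of this set have no immunoproteasome counterpart, and a value under 5 TPM in a single cell does not show that a subunit was not made. For the regulatory particle the medians were 6, 7 and 7 of 17 genes, and for the immunoproteasome 3, 3 and 4 of 5.

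Within a prefix, correlations between core subunits from cell to cell were weak. The median correlation between pairs of core genes was 0.09 over 27 cells of 051716, 0.14 over 19 of 051816 and 0.03 over 48 Ski-WT cells, against 0.02, 0.05 and 0.03 between core genes and the other filtered genes. For the regulatory particle the medians were 0.04, 0.08 and 0.08, against 0.02, 0.04 and 0.03 with the other filtered genes. For the immunoproteasome they were 0.04, 0.21 and 0.01, against 0.05, 0.06 and 0.03. In 051816, 9 of 10 immunoproteasome pairs were above 0, against 59.1% of pairs with other genes. In 051716 and in Ski-WT 6 of 10 were above 0. The core and regulatory particle class means were more closely related. The per-cell core and regulatory particle means correlated with r of 0.50, 0.56 and 0.57, and after the cell's mean over all filtered genes was taken off with 0.34, 0.34 and 0.32. The points share the cell and its detection, since the core mean also correlated with the number of genes above 0, with r of 0.36, 0.55 and 0.64. The core and immunoproteasome means correlated with r of 0.10, 0.11 and 0.25. After the cell's mean was taken off, these were -0.12, -0.17 and 0.04. For the regulatory particle and immunoproteasome means r was 0.16, 0.46 and 0.20, and after the same step -0.13, 0.26 and -0.02. These are descriptions over cells of single samples, in sparse values.

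Further lists of the pathway, with 43 genes found in all, were read beside the subunits. Of 13 assembly and associated genes 2 were called lower and 0 higher, near the 11.5% of all genes, with a median difference of -0.20. These were Adrm1, a ubiquitin receptor of the regulatory particle, at -1.41 and Txnl1, a thioredoxin-like protein bound to it, at -1.45. Their mean TPM was not lower in Ski-KO, at 87.3 against 83.5 in Ski-WT for Adrm1 and 110 against 103 for Txnl1. Pomp, the chaperone that matures the core, differed by 0.28. Of 17 genes of ubiquitin supply and delivery, 15 of which passed the filter, 1 was called lower and 0 higher, against the 11.5% of all genes, with a median of -0.25. It was Nfe2l2, a transcription factor known to raise proteasome genes under oxidative stress, at -1.53 with -1.99 in 051716 and -0.86 in 051816. Nfe2l1, the factor that raises them when the proteasome is inhibited, differed by -0.88, with 11 Ski-KO and 19 Ski-WT cells at 5 TPM or more. Ubb, a ubiquitin gene, was at 12032 TPM in Ski-KO and 12062 TPM in Ski-WT.

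Of 13 partners of the immunoproteasome in antigen presentation 0 were called lower and 0 higher, against 11.5% and 2.0% of all genes, with a median of -0.14. The difference from the immunoproteasome genes was not tested. B2m, the light chain of class I molecules, differed by -0.01 and H2-K1, a heavy chain, by -0.14, and both reached 5 TPM in all cells. Tap1, a peptide transporter gene that lies beside Psmb9, differed by -0.90, with -0.47 in 051716 and -1.51 in 051816. It reached 5 TPM in 6 cells of Ski-KO and 13 of Ski-WT. Tap2, of the same list, went the other way, at 0.46, with 0.45 in 051716 and 0.47 in 051816. It reached 5 TPM in 10 cells of Ski-KO and 6 of Ski-WT. Of the interferon-linked factors, Irf1 differed by -0.15 and Nlrc5 by -0.63, the latter with -0.67 and -0.57 by prefix.

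Promoters are shown to set the genes called lower beside what their start sites hold. RefSeq promoters of GRCm38.p6, reaching 250 bases before to 50 after each start, were matched by symbol for 38 of the 45 genes, and 15 patterns were searched on both strands. The pattern with the largest difference between classes, picked after the counts were seen, was CCGGAAG, the letters bound by ETS factors. It was in 9 of 14 regulatory particle promoters, 1 of 12 core promoters and 0 of 5 immunoproteasome promoters, against 9.93% of all 27025 genes with a promoter and 24.1% of the 4775 filtered genes with one. In 6 regulatory particle genes a match began within 50 bases before the start. They are printed 5′ to 3′ on the strand of the gene, with the match in capitals (CTTCCGG is the same pattern on the other strand). They lie at chr12:100110158-100110197 (Psmc1, plus strand), chr5:21786707-21786746 (Psmc2, plus), chr16:20651610-20651649 (Psmd2, plus), chr14:14120967-14121006 (Psmd6, minus), chr11:80428575-80428614 (Psmd11, plus) and chr11:107479488-107479527 (Psmd12, plus).
Psmc1: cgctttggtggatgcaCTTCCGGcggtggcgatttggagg
Psmc2: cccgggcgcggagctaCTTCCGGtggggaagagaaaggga
Psmd2: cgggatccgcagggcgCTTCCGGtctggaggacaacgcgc
Psmd6: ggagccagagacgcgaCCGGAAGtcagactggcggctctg
Psmd11: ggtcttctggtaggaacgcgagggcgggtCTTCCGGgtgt
Psmd12: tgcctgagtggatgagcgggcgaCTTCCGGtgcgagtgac
The genes with this pattern did not share a direction, since Psmc2, Psmd11 and Psmd12 were called lower, while Psmc1, Psmd2 and Psmd6 differed by 0.64, 0.37 and 0.02.

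The start regions of the immunoproteasome genes called lower are shown because CCGGAAG was in none of them. No pattern of the 15 was in all 3 of these genes. GGGCGG, in 38.2% of all promoters, was in Psmb9 and Psme1, and TGANNNNGC, in 45%, was in Psmb8 and Psmb9. Matches to these patterns are not set in capitals below. The 150 bases before the start of Psmb8 (chr17:34198045-34198194, plus strand) and of Psmb9 (chr17:34187331-34187480, minus strand) are printed with a pattern match in capitals, which is TTCNNNGAA, an inverted repeat, in Psmb8 and CCAAT, read on the other strand, in Psmb9. For Psme1 the 30 bases from the start (chr14:55578494-55578523, plus strand) are printed, with GAAA, any 2 bases and GAAA again, the letters of the interferon-stimulated element, on the other strand in capitals.
Psmb8: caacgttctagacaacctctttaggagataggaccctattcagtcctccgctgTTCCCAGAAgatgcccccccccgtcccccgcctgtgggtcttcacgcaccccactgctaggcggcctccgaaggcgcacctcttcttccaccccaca
Psmb9: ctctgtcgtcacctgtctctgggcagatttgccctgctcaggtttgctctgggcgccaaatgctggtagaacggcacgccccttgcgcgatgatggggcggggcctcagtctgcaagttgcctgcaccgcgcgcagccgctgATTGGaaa
Psme1: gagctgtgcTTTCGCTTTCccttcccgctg
TTCNNNGAA was in 9.55%, CCAAT in 41.1% and the interferon letters in 3.99% of all promoters of this length. The interferon letters were in 1 of the 5 immunoproteasome genes, 1 of 12 core genes and 1 of 14 regulatory particle genes. A match describes the letters of this window and does not show that a factor binds there.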

How the data were processed

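The deposited table holds log2(TPM + 1) per gene and cell, as read from the values themselves, made by the authors from single-cell SMARTer cDNA and Nextera XT libraries of cells captured on a Fluidigm C1 chip. Bowtie2, RSEM and mm9 are named in the submitters' processing notes, without versions or roles. Cells were grouped by title into Ski-KO and Ski-WT. No cell was removed, no doublet caller was run and no sample-level test was possible.

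Means over cells of the deposited values, their differences, shares of cells at 5 TPM or more with exact intervals at 95%, and per-cell class means were computed. The background was formed by genes with a value above 0 in 25% or more of Ski-KO or of Ski-WT cells. The members and lists were chosen with earlier results of these data known. Named in full were the immunoproteasome genes and Psmb5, Psmb6 and Psmb7. In the core and the regulatory particle the 2 highest and 2 lowest by mean TPM and the 4 lowest and 4 highest differences with both Ski-KO prefixes on the same side of Ski-WT were named, and every other member at least once. Psma1, Psma4, Psmd1, Psmd2 and Psmd11 were given more values after these were seen. Promoter sequences came from RefSeq (GRCm38.p6, a build other than that of the files) by symbol, and transcript lengths from GENCODE. The scripts were tested on simulated data with 200 shifted genes. Computation used Python 3.11.15 with pandas 2.3.3, numpy 2.4.6 and scipy 1.17.1, and plots used matplotlib 3.10.9. Some members of the marker and pathway lists are not reported here by name.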

Additional observations from a re-analysis of the deposited data

How the results depend on the processing

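A median, per-cell or share difference counted as moved when it shifted by more than the SD between both Ski-KO prefixes, and a count when it shifted by over 1.5 times. Of the 13 genes called lower, 2 were at -1 or less as log2 ratios of mean TPM, 3 with log2(TPM + 10), 5 with detected genes as a covariate, 6 in prefix 051816 alone, 8 with the cell mean taken off and 10 to 13 under the other 5 alternatives. As log2 ratios of mean TPM, Psma3 and Psmd14 were above 0 (0.033 and 0.015). On that scale the medians were 0.050 for the core, -0.12 for the immunoproteasome and -0.049 for all genes, and 0, 2 and 0 genes of core, regulatory particle and immunoproteasome were lower by 1 or more. With log2(TPM + 10) the immunoproteasome median was -0.96 and that of all genes -0.10. Here 0 core, 1 regulatory particle and 2 immunoproteasome genes were counted. With log2(TPM + 0.1) the medians were -1.34 and -0.35. With the cell mean taken off, the medians were 0.13 for the regulatory particle, -1.06 for the immunoproteasome and 0.038 for all genes, with 1 core and 3 regulatory particle genes, and the immunoproteasome per-cell difference was -0.75. With detected genes as a covariate the medians were 0.11, -0.86 and -0.072, with 1 core, 2 regulatory particle and 2 immunoproteasome genes. In prefix 051716 alone the regulatory particle median was -0.38 and the core count 7, and in 051816 alone the regulatory particle count was 3. Over members above 0 in 25% or in 50% of cells the regulatory particle median was -0.41. The immunoproteasome median was -1.29 after rescaling without ribosomal protein genes and the 100 highest genes, and -1.52 with values under 5 TPM set to 0. Its per-cell difference was -0.68 as log2 of summed TPM, and its share of cells above 0 differed by -6.99 percentage points. Without the filter the median of all genes was -0.048. Leaving out Psma8 and Psmb11, which gave a core median of -0.69, and summing Psme2 with Psme2b were chosen after seeing the data. No paired analysis was possible because cell numbers in the titles only name cells. Depth is not recoverable from TPM, and no replicate animal is named, so neither genotype has an error between animals.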
